A study of Mus musculus with 4 samples.

Results

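Cardiac muscle relaxes when calcium is cleared from the cytosol. The 8 genes described here encode proteins of that clearance or of the sodium gradient it draws on, and they were selected by name from the 48432 genes of the deposited expression table. They are Atp2a2 (the SERCA2 calcium pump of the sarcoplasmic reticulum), Pln and Sln (phospholamban and sarcolipin, small membrane proteins that inhibit that pump), Slc8a1 (the sodium-calcium exchanger NCX1), Atp2b1 and Atp2b4 (the plasma membrane calcium pumps PMCA1 and PMCA4), Atp1b1 (the β1 subunit of the sodium pump) and Fxyd1 (phospholemman, which inhibits the sodium pump). All 8 were found, each in 1 row.

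The RNA came from cardiomyocytes released from mouse hearts by Langendorff perfusion, and polyadenylated RNA was sequenced. There were 4 libraries in 2 groups of 2. The MHC control group had the genotype labelled MHC and the Rbfox2 OE group the genotype labelled RbFox2, which overexpresses RBFOX2, an RNA-binding regulator of splicing whose non-muscle isoform the series title links to conduction defects in myotonic dystrophy. All mice were C57BL x FVB, and doxycycline had been given in the diet of both groups for 3 days. The labels do not say what drives the transgene, nor whether a library came from 1 heart or several, and give neither age nor sex.

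The table gives 1 FPKM value per gene and group (fragments per kilobase of transcript, normalised for library size), combined over the 2 libraries, with a lower and an upper bound, here called the interval, whose level is not stated. No value per library was available, so no spread between libraries and no p-value could be computed, and every comparison below is between 2 pooled values. The descriptive criteria were a ratio of at least 2-fold on the log2(FPKM + 1) scale and separate bounds, meaning that the intervals of the groups did not overlap. Sequencing depth in reads is unknown. Rbfox2 itself stood at 14.7 FPKM in MHC control and 293 FPKM in Rbfox2 OE, a 19.9-fold difference in the labelled direction.

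In ventricular muscle, SERCA2 returns most of the calcium of each beat to the sarcoplasmic reticulum, and NCX1 exports most of the remainder in exchange for sodium. Unphosphorylated phospholamban lowers the calcium affinity of SERCA2, and phosphorylation by protein kinase A relieves this. Sarcolipin acts on the same pump and is known in the mouse heart as an atrial transcript. The sodium pump, an α and a β subunit with phospholemman as a regulator, sets the gradient that NCX1 uses.

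Pln and Sln are shown first, because their values lay in opposite directions. Each has its whole reading frame in 1 coding exon. The Pln frame has 159 bases for 52 residues (GRCm38 chr10:53343864-53344022, plus strand), and the Sln frame has 96 bases for 31 residues (chr9:53853473-53853568, plus strand). Capitals mark the longest run of bases that the frames share, 8 bases, at positions 94 to 101 of Pln and 25 to 32 of Sln counted from the A of the start codon. The run is in frame in both.
Pln: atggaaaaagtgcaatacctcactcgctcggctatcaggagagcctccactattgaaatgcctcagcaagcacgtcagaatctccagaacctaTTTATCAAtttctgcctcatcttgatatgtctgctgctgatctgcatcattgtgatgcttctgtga
Sln: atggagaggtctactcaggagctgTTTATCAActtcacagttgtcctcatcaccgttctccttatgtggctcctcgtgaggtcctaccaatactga

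Of the 8 genes, 7 had an estimate in both groups, and all 7 passed the minimum of 1 FPKM on average. At least 2-fold lower in Rbfox2 OE were Pln and Slc8a1, and at least 2-fold higher was Sln. These are 3 of 7 genes, where 17% of all 11697 genes compared were 2-fold apart (10% lower and 6.95% higher). The bounds were separate for 4 of the 7, Pln, Slc8a1 and Fxyd1 lower and Sln higher, against 16% of all genes (9.33% lower and 6.66% higher). Atp2b1, Atp2b4 and Atp1b1 met neither criterion. The median log2 ratio of the 7 was -0.55, beside -0.06 over all genes compared. The 8 genes were proposed with earlier results of these data in view, so these counts are a description.

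**Figure D1:**
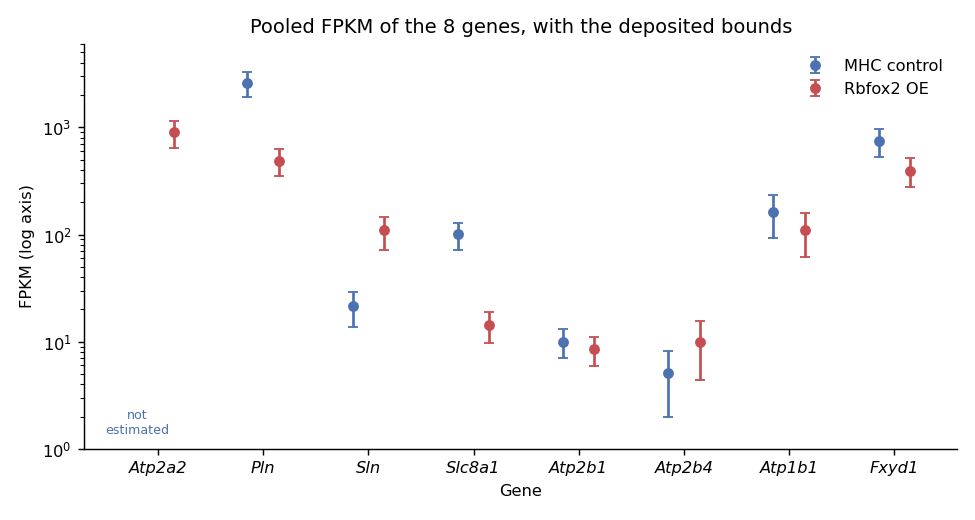
FPKM of the 8 genes (log axis) in MHC control (blue) and Rbfox2 OE (red); points are the pooled values and bars the deposited bounds. Pln and Slc8a1 sit lower and Sln higher in Rbfox2 OE without overlap of the bars, and Atp2a2 has no estimate in MHC control.

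Atp2a2, the pump on which Pln and Sln act, could not be compared. Its control row carries the status HIDATA, which Cuffdiff gives to a locus with too many fragments to estimate, and the 0 listed there is not a measurement. In Rbfox2 OE it stood at 897 FPKM (interval 648 to 1146), rank 58 by level among the genes estimated in that group. The status HIDATA was given to 30 rows in MHC control and to 26 in Rbfox2 OE, and those 26 were HIDATA in both groups. The 4 rows that were HIDATA in MHC control only were Atp2a2 and 3 unconfirmed transcripts, Gm43359, Gm43360 and Gm43361, that lie within its locus (chromosome 5, 122453513 to 122502225, minus strand). No direction was read from this difference in status.

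Pln (ENSMUSG00000038583, chromosome 10, 53337667 to 53345987, plus strand) stood at 2613 FPKM in MHC control (interval 1915 to 3312) and at 488 FPKM in Rbfox2 OE (interval 354 to 622). It was 5.35-fold lower, and its intervals were far apart: the log2 ratio of -2.42 became -1.62 between the nearest bounds and -3.22 between the farthest. By level, Pln ranked 17 among the genes estimated in MHC control and 128 in Rbfox2 OE. Only 65 of the 11697 genes compared had a lower log2 ratio. In Rbfox2 OE the per-length level of Pln was 0.545 of that of Atp2a2 (0.309 to 0.961 over the extremes of the bounds), a ratio for which the control has no counterpart. Pln lies within the annotated span of Cep85l on the opposite strand. Cep85l stood at 3.53 FPKM in MHC control (interval 0 to 27.3) and 6.32 FPKM in Rbfox2 OE (interval 0 to 20.6), with overlapping bounds.

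Sln (ENSMUSG00000042045, chromosome 9, 53850164 to 53854560, plus strand) stood at 21.4 FPKM in MHC control (interval 13.7 to 29.1) and at 109 FPKM in Rbfox2 OE (interval 71.9 to 147). It was 5.12-fold higher, with a log2 ratio of 2.30 (1.28 between the nearest and 3.34 between the farthest bounds), and 80 of the genes compared had a higher ratio. The per-length level of Pln remained above that of Sln in both groups, by 122-fold in MHC control and by 4.46-fold in Rbfox2 OE. Sln made up 0.812% of the summed FPKM of both inhibitors in MHC control (0.411% to 1.5% over the extremes of the bounds) and 18.3% in Rbfox2 OE (10.4% to 29.3%). The sum itself was 2635 FPKM in MHC control and 598 FPKM in Rbfox2 OE. The locus deposited for Sln ends at 53853844, short of its annotated end, and how this bears on its level beside Pln was not tested. A share within a group does not depend on how the groups were scaled against each other, but this pair was chosen after its values were seen.

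Some atrial markers were also higher in Rbfox2 OE, while others were close between the groups or lower. Of 18 listed, 15 were compared, 7 were at least 2-fold higher and 2 at least 2-fold lower, beside 6.95% and 10% of all genes. Their median log2 ratio was 0.66. The summed level of the list was 1121 FPKM in MHC control, most of it from Clu, and 3900.5 FPKM in Rbfox2 OE, most of it from Nppa. Nppa (atrial natriuretic peptide) stood at 118 and 2178 FPKM, Myl4 (atrial essential light chain) at 51.0 and 467 FPKM and Myl7 (atrial regulatory light chain) at 49.0 and 395 FPKM. Of the 15, 5 had a log2 ratio below 0. Among these, Kcnj3 and Angpt1 were the 2 that were at least 2-fold lower, with log2 ratios of -1.45 and -1.50, and Clu, the second most abundant of the list, stood at 789 and 738 FPKM with overlapping bounds. The part of atrial transcripts in the Sln difference was not tested. Sarcolipin is also a skeletal muscle transcript. Of 19 skeletal muscle markers, 5 were compared, 4 of them with a log2 ratio above 0. Higher with separate bounds were 2, beside 6.66% of all genes, and their median log2 ratio over the 5 was 0.79. The summed level of that list was 212 FPKM in MHC control and 1515 FPKM in Rbfox2 OE, most of it from Acta1 (skeletal α-actin, which heart muscle also expresses) at 137 and 1400 FPKM. Mybpc2 (fast myosin-binding protein C) stood at 10.1 and 20.1 FPKM with separate bounds, and Myl1 at 29.5 and 51.6 FPKM and Casq1 at 21.1 and 28.9 FPKM with overlapping bounds. The fast skeletal myosins Myh1, Myh2 and Myh4 were each at no more than 0.00235 FPKM in both groups. The part of skeletal muscle transcripts in the Sln difference was not tested.

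Other regulators and partners of SERCA2 in the sarcoplasmic reticulum mostly had overlapping bounds, as did most genes compared, of which 16% had separate bounds. Of the 22 regulators and partners compared, 3 were lower with separate bounds and none was higher, and the same 3 passed the 2-fold criterion. The median log2 ratio was -0.13. Gm34302, which RefSeq names Strit1 and which encodes DWORF, a small protein that activates SERCA by displacing phospholamban, stood at 145 FPKM in MHC control (interval 95.3 to 195) and 38.1 FPKM in Rbfox2 OE (interval 21.4 to 54.8), a log2 ratio of -1.90. Asph, a locus that encodes aspartate beta-hydroxylase as well as junctin, a calsequestrin anchor, had a log2 ratio of -1.71. Casq2, the cardiac calcium buffer calsequestrin 2, stood at 473 FPKM (interval 344 to 602) and 199.7 FPKM (interval 144 to 256), a log2 ratio of -1.24.

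The abundant calcium-binding protein genes S100a1 and Hrc met neither criterion. S100a1, an activator of SERCA2, had 1736 FPKM in MHC control and 1558 FPKM in Rbfox2 OE. Hrc, the histidine-rich calcium binding protein of the reticulum, had 796 and 667 FPKM. Other small SERCA inhibitors were low or close between the groups: Mrln (myoregulin) stood at 1.32 and 0.801 FPKM, and 1810037I17Rik (another-regulin) at 40.8 and 36.6 FPKM. Ppp1cb, a catalytic subunit of the phosphatase that acts on phospholamban, had a log2 ratio of 0.03, and Ppp1ca and Ppp1cc had -0.24 and -0.31, each with overlapping bounds.

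**Figure D2:**
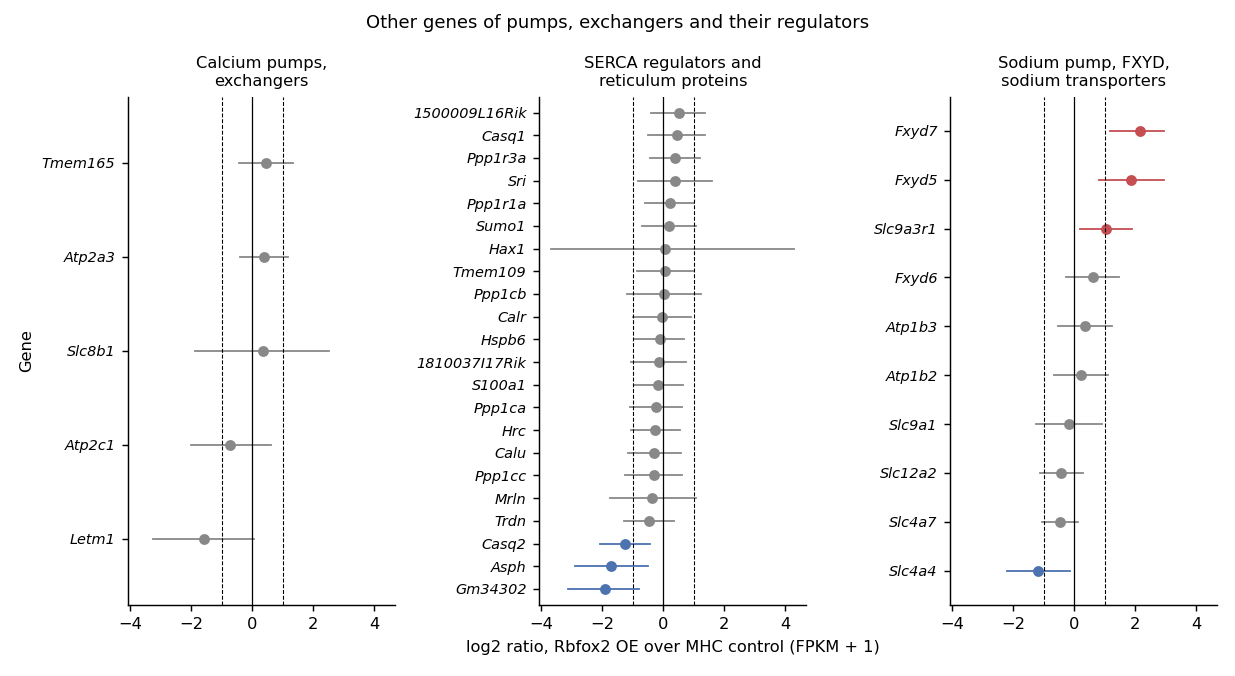
Log2 of Rbfox2 OE over MHC control (FPKM + 1) for the 37 other genes compared; lines run between the ratios of the nearest and the farthest bounds, blue marks separate bounds lower in Rbfox2 OE, red separate bounds higher, grey overlapping bounds, and dashed lines the 2-fold threshold. Gm34302, Asph, Casq2 and Slc4a4 were lower, and Fxyd5, Fxyd7 and Slc9a3r1 higher.

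Slc8a1 (ENSMUSG00000054640, chromosome 17, 81373105 to 81738377, minus strand) had the lowest ratio of the 7. It stood at 100.5 FPKM in MHC control (interval 72.2 to 129) and at 14.3 FPKM in Rbfox2 OE (interval 9.70 to 18.9), 7.02-fold lower. The log2 ratio was -2.73, -1.88 between the nearest bounds and -3.60 between the farthest, and 33 genes compared had a lower one. By level it ranked 712 in MHC control and 3786 in Rbfox2 OE. Its paralogues Slc8a2 and Slc8a3 were under 1 FPKM in both groups, at 0.388 and 0.0387 FPKM in MHC control and 0.351 and 0.0243 FPKM in Rbfox2 OE.

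The plasma membrane pumps, the other route of calcium out of the cell across the sarcolemma, met neither criterion. Atp2b1 (chromosome 10, 98914406 to 99026143, plus strand) stood at 10.03 FPKM in MHC control (interval 7.04 to 13.0) and 8.49 FPKM in Rbfox2 OE (interval 5.92 to 11.0), a log2 ratio of -0.22. Atp2b4 (chromosome 1, 133699457 to 133801041, minus strand) stood at 5.10 FPKM (interval 1.996 to 8.20) and 9.90 FPKM (interval 4.36 to 15.4), a log2 ratio of 0.84. Both intervals overlapped, and those of Atp2b4 were the widest of the 7 genes, with the upper bound 60.8% above the value in MHC control and 56.0% above it in Rbfox2 OE. The ratio between the nearest bounds has the opposite sign to that between the values for both genes, at 0.58 for Atp2b1 and -0.78 for Atp2b4.

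Set against these pumps, the exchanger took a smaller share in Rbfox2 OE. Slc8a1 made up 86.9% of the summed FPKM of Slc8a1, Atp2b1 and Atp2b4 in MHC control (77.3% to 93.4% over the extremes of the bounds) and 43.8% in Rbfox2 OE (26.8% to 64.8%). The sums were 116 and 32.7 FPKM. Its per-length level was 10.02-fold that of Atp2b1 in MHC control and 1.69-fold in Rbfox2 OE. The locus deposited for Slc8a1 (81388691 to 81649607) leaves out its annotated 3′ UTR, while those of Atp2b1 and Atp2b4 reach their annotated 3′ ends. How this bears on levels compared across genes was not tested. Between the pumps themselves, the share of Atp2b4 was 33.7% in MHC control (13.3% to 53.8%) and 53.9% in Rbfox2 OE (28.3% to 72.3%), ranges that overlap.

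Of 16 other calcium pump and exchanger genes, 5 reached 1 FPKM on average and none of the 5 had separate bounds. Letm1, an exchanger of the inner mitochondrial membrane, was at least 2-fold lower, at 41.4 FPKM (interval 19.6 to 63.1) and 13.2 FPKM (interval 5.72 to 20.7), with bounds that just overlapped. Atp2c1, a calcium and manganese pump of the Golgi, stood at 16.1 and 9.36 FPKM with overlapping bounds. Atp2a3 (SERCA3) stood at 1.91 and 2.82 FPKM, and Atp2a1 (SERCA1, the pump of fast skeletal muscle) at 0.215 and 0.303 FPKM. In Rbfox2 OE, where Atp2a2 has an estimate, it was thus the most abundant SERCA gene. Slc8b1, the mitochondrial sodium-calcium exchanger, stood at 3.06 and 4.19 FPKM with overlapping bounds.

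**Figure D3:**
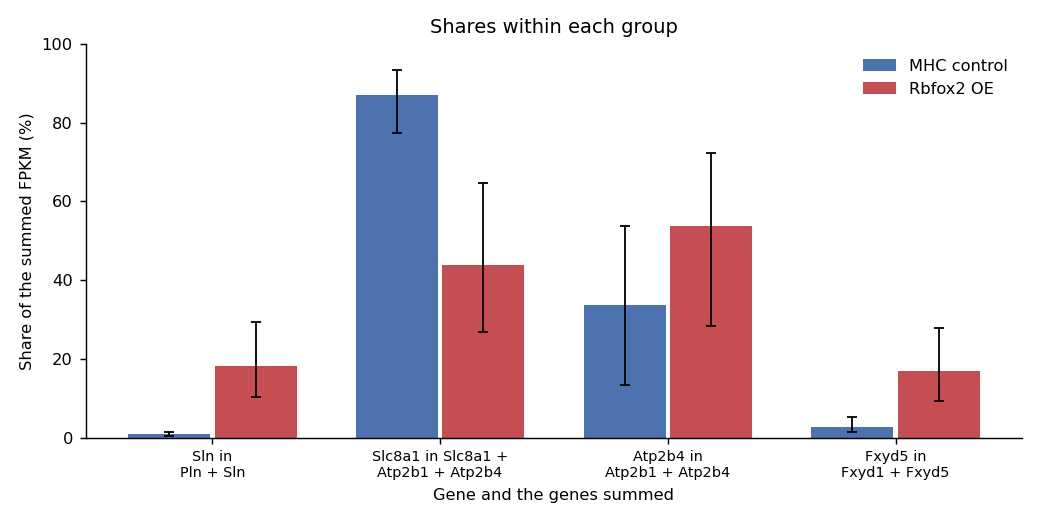
Share of the summed FPKM (%) taken by 1 gene within each group, MHC control in blue and Rbfox2 OE in red; error bars are the extremes that the deposited bounds allow. The ranges are separate for Sln, Slc8a1 and Fxyd5 and overlap for Atp2b4. For Sln and Fxyd5 this follows from the bounds of the genes summed, which were separate in opposite directions, and adds nothing to them.

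Atp1b1 (chromosome 1, 164437109 to 164458355, minus strand), the β1 subunit needed to bring the pump to the membrane, stood at 163 FPKM in MHC control (interval 93.4 to 233) and 111 FPKM in Rbfox2 OE (interval 61.9 to 160), a log2 ratio of -0.55 with overlapping bounds. Atp1b1 overlaps Nme7 on the opposite strand, which stood at 2.12 FPKM (interval 0 to 9.58) and 0.877 FPKM (interval 0 to 4.92), with overlapping bounds. The other β subunits, Atp1b2 and Atp1b3, stood at 6.83 and 24.3 FPKM in MHC control and 8.19 and 31.2 FPKM in Rbfox2 OE, also with overlapping bounds.

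Fxyd1 (ENSMUSG00000036570, chromosome 7, 31051678 to 31057199, minus strand) stood at 751 FPKM in MHC control (interval 528 to 974) and at 395 FPKM in Rbfox2 OE (interval 277 to 513). It was 1.90-fold lower, with a log2 ratio of -0.92, short of the 2-fold criterion. The bounds were separate by a small margin, a log2 ratio of -0.04 between the nearest, and they overlapped once the groups were centred on the median gene (log2 ratio -0.86), rescaled without mitochondrial and the 10 most abundant genes (-0.77) or centred on cardiomyocyte markers (-0.37). It ranked 91 by level in MHC control and 169 in Rbfox2 OE.

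Among 10 other sodium pump, FXYD and sodium transporter genes compared, 3 were higher and 1 was lower with separate bounds. The same 4 were 2-fold apart, and the median log2 ratio was 0.29. Of all genes, 16% had separate bounds (9.33% lower and 6.66% higher) and 17% were 2-fold apart. Fxyd5 (dysadherin, an FXYD protein of epithelium and other cells) stood at 21.3 FPKM (interval 13.3 to 29.4) and 80.1 FPKM (interval 52.6 to 108), a log2 ratio of 1.86. Fxyd7, known from brain, stood at 0.247 FPKM (interval 0 to 0.560) and 4.58 FPKM (interval 2.51 to 6.66). Fxyd5 made up 2.76% of the summed FPKM of Fxyd1 and Fxyd5 in MHC control (1.35% to 5.27% over the extremes of the bounds) and 16.8% in Rbfox2 OE (9.29% to 28.0%). Slc9a3r1, a scaffold for sodium-proton exchangers, had a log2 ratio of 1.04, and Slc4a4, a sodium bicarbonate cotransporter, one of -1.21.

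Over the 3 lists together, 37 of 56 genes found were compared. Of these, 7 had separate bounds, 4 lower and 3 higher, and 8 were 2-fold apart, 5 lower and 3 higher. Pooled over the lists, these shares were not far from the 16% and 17% of all genes, but the lists were unlike. Separate bounds were found for 0 of 5 calcium pump and exchanger genes, 3 of 22 SERCA regulators and partners, and 4 of 10 sodium pump, FXYD and sodium transporter genes. Centred on cardiomyocyte markers, 8 had separate bounds, 1 lower and 7 higher, and the lower one was Gm34302 (log2 ratio -1.35).

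**Figure D4:**
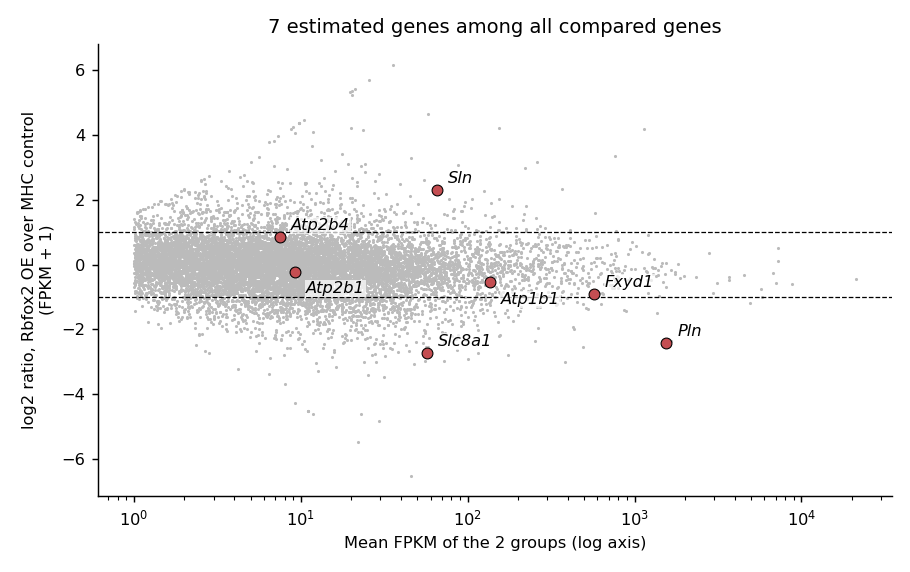
Log2 of Rbfox2 OE over MHC control (FPKM + 1) against the mean FPKM of both groups (log axis) for the 11697 genes compared (grey) and the 7 estimated genes (red); dashed lines mark a 2-fold difference. Pln lies at a high mean level below the lower line, while Atp2b1 and Atp2b4 lie inside the 2-fold lines at lower levels.

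Cardiomyocyte markers were lower, and markers of several other cell types higher, in Rbfox2 OE. Of 20 cardiomyocyte markers, 18 were estimated in both groups: 6 were lower with separate bounds, none was higher, and the median log2 ratio was -0.55. The median of the 7 genes is equal at this rounding, but it is the value of Atp1b1 alone, and the 7 ranged from -2.73 to 2.30. Their summed level was 88017 FPKM in MHC control and 57747 FPKM in Rbfox2 OE, with Myl2 at 24688 and 18007 FPKM, so both preparations carried the labelled cell type. Markers of macrophages and leukocytes had a median log2 ratio of 1.84 (12 of 13 at least 2-fold higher), fibroblasts 1.08 (8 of 12), endothelium 0.73 (4 of 12), smooth muscle and pericytes 0.81 (3 of 10, with 1 lower) and red blood cells 2.28 (4 of 5). Ventricular markers had a median of -0.41 (1 of 10 at least 2-fold lower). Of all genes, 6.95% were at least 2-fold higher and 10% at least 2-fold lower, and 9.33% were lower with separate bounds. In these bulk samples fewer cells of a type and less RNA per cell cannot be told apart.

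Centring on the cardiomyocyte markers moves every log2 ratio by the same 0.55. It therefore cannot change how the members differ from each other, only where they lie relative to these markers. With the groups centred on the median of that list, Pln had a log2 ratio of -1.87 and Slc8a1 of -2.18, both with separate bounds, and Sln one of 2.85. Atp1b1 then stood at -0.0012, Atp2b1 at 0.33 and Atp2b4 at 1.39, with overlapping bounds. For Fxyd5 and Atp2b4, which many cell types express, the part of the non-cardiomyocyte cells was not tested.

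**Figure D5:**
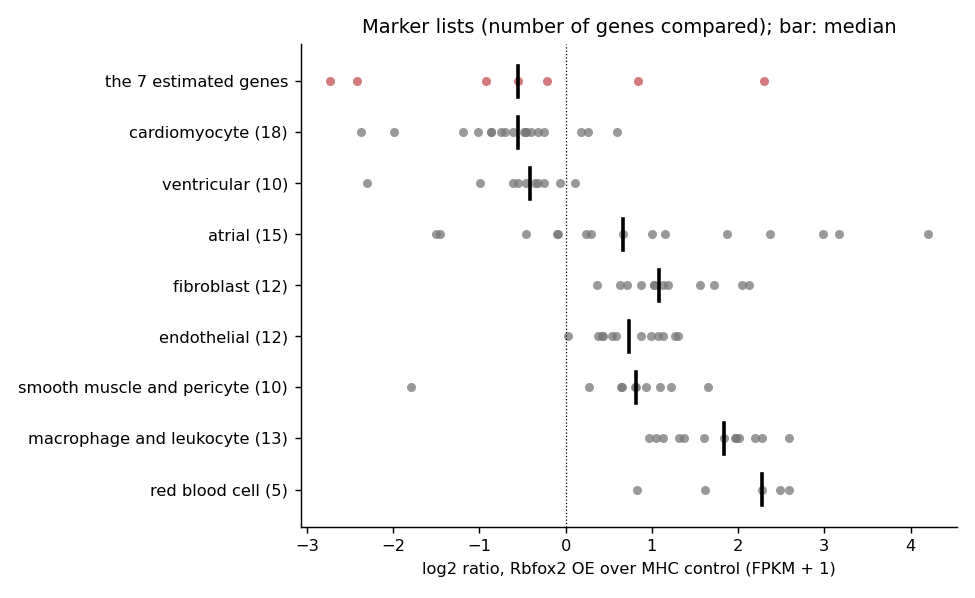
Log2 of Rbfox2 OE over MHC control (FPKM + 1) for the 7 estimated genes (red) and for marker lists (grey, number of genes compared in brackets); vertical bars are medians. Slc8a1 lies below the lowest cardiomyocyte marker, at -2.37, and Pln, at -2.42, lies close to that marker. Sln lies within the range of the atrial markers.

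RBFOX proteins bind the RNA motif UGCAUG, so the letters TGCATG were searched on the sense strand of the longest complete coding transcript of each gene in GENCODE M21. They were found at least once in 5 of the 8 genes: Pln, Atp2a2, Slc8a1, Atp2b1 and Atp2b4. They were not found in the transcripts of Sln, Atp1b1 and Fxyd1. Over all 11055 genes compared with such a transcript, 55.3% held at least 1 match, and 34.8% held one in the 3′ UTR, so a match is common and is a description of the letters only. Introns, where RBFOX proteins direct splicing, were not analysed here.

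The matches are shown for the genes of the reticulum pump, and for the exchanger only the one in the coding sequence. The motif is in capitals, with 10 bases on either side. Pln has 1, in its 3′ UTR of 1965 bases (chr10:53345644-53345649), where 47.3% of the 1646 genes with a 3′ UTR of similar length (0.8 to 1.2 times) hold a match. Atp2a2 has 1 in the coding sequence (chr5:122458497-122458502) and 1 in the 3′ UTR (chr5:122456739-122456744). Slc8a1 has 1 in the coding sequence (chr17:81648434-81648439) and 6 in an annotated 3′ UTR of 15586 bases that lies outside the locus the authors' table gives for the gene. All 9 genes with a 3′ UTR of similar length, Slc8a1 among them, hold a match there, with a median of 5.
Pln 3′ UTR: gaaacaggttTGCATGaggggttgca
Atp2a2 coding: tgggtgctgcTGCATGgtggttcatc
Atp2a2 3′ UTR: ttgtgtctttTGCATGattctctgga
Slc8a1 coding: gctgtcagtaTGCATGaagtcaacat

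Matches were present in genes that were lower and in genes that met neither criterion. Pln and Slc8a1, lower with separate bounds, held matches, and Fxyd1, also lower with separate bounds, held none. Atp2b4, with 7 in a 3′ UTR of 7234 bases, and Atp2b1, with 2 in 3024 bases, met neither criterion, as did Atp1b1, with none. Sln, with none in a transcript of 1318 bases, was higher. With 7 genes compared, a relation between matches and direction was not tested. Whether a transcript holds a match also depends on its length. At least 1 match was held by 26.2% of genes with transcripts of similar length to that of Sln, 17.7% for Fxyd1 and 49.5% for Atp1b1. For 3′ UTRs of similar length, the share was 63.7% for Atp2b1 and 91.4% for Atp2b4.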

How the data were processed

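The FPKM values, with lower and upper bounds in FPKM, were estimated by the authors with Cuffdiff and deposited as 1 value per group, per the file headers. The submitters' processing notes list STAR 2.4.2a, HTSeq, DESeq2 and Cuffdiff 2.2.1, among other tools, and the builds GRCm38 and mm10. Only the Cuffdiff values were used here. The annotation, the level of the bounds and whether strand was used in counting are not given in the sources used here. Depth is unknown, so no counting interval was given.

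The planned test, limma over libraries, needs library values that the table lacks. Log2 ratios with a pseudocount of 1 FPKM were used instead, on which low genes change less than in a plain ratio. Compared were genes averaging at least 1 FPKM with status OK in both groups, as rows of the table (Python 3.11.15, pandas 2.3.3). Extremes of a share or ratio take the opposite bounds of its genes. Shares and ratios were chosen after values were seen, as was the motif search.

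The members and the gene lists were chosen with earlier results of these data known. Named were the 8 members, other pathway genes with separate bounds, 4 fixed partners and up to 4 markers per list, the highest by mean FPKM; further genes named with overlapping bounds, and Kcnj3, Angpt1 and the Myh genes, were chosen after their values were seen. No likeness of patterns was computed, since each group has 1 value. Of 61 listed symbols, 56 were found; a few genes of the original lists are not reported here and enter no list count; 1500009L16Rik is not known as a SERCA regulator and was listed in error. The skeletal muscle list (5 of 19 compared, 1 at least 2-fold higher) and the neuronal and glial list (1 of 10 compared) were also run. Coordinates and transcripts are from GENCODE M21 (GRCm38), where 99.2% of the identifiers were found. Calculations were tested on simulated data. Alternatives covered the pseudocount, filter, scaling, status and fold threshold.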

Additional observations from a re-analysis of the deposited data

How the results depend on the processing

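No paired analysis was possible because replicates of a group were pooled into 1 deposited value; fits leaving out each library were not run for the same reason. How far libraries of a group differ is unknown, which limits every comparison, and Atp2a2 has no ratio under any setting.

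The log2 ratios of Pln (-2.42 to -1.87), Sln (2.12 to 2.85) and Slc8a1 (-2.80 to -2.18) kept their direction, a 2-fold difference and separate bounds under their 8 alternatives. Not all of these could have changed them. The filter and status settings leave the values of a single gene as they are, and the pseudocount does not enter the bounds. Only the scalings could alter whether bounds were separate. Atp2b1 ranged from -0.24 to 0.33, Atp2b4 from 0.56 to 1.39, Atp1b1 from -0.55 to -0.0012 and Fxyd1 from -0.93 to -0.37. A 1.5-fold threshold gave 5 of the 7 members in place of 3. Centred on cardiomyocyte markers, 4 members were 2-fold apart, 2 lower and 2 higher, and the other pathway genes split into 3 lower and 5 higher. In place of 8 such genes, a pseudocount of 5 gave 5 (4 lower, 1 higher), and only 1 passed a 4-fold threshold. Over all genes, 1986 were 2-fold apart, 813 higher and 1173 lower: a pseudocount of 5 gave 862, a 1.5-fold threshold 4521 and a 4-fold threshold 289. The 2-fold genes were 1062 higher and 910 lower on rescaling, and 2554 higher and 357 lower when centred on cardiomyocyte markers, the median log2 ratio of all genes being 0.071 and 0.49 under these settings, beside -0.06 as reported.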
